A study of Homo sapiens with 12 samples.

Results

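The genes described here encode the lysosomal proton pump and the cathepsins, measured by mRNA sequencing in U87 cells, an established human glioblastoma line. They were chosen by gene name: every name beginning with ATP6V0 or ATP6V1, the names ATP6AP1 and ATP6AP2, and every cathepsin name built from CTS and a letter. Names with a hyphen and pseudogene names ending in P and a number were left out, which removed 10 names. The rule gave 36 of the 35741 genes in the count table. These are 9 genes of the membrane sector V0, 11 of the catalytic sector V1, 2 accessory subunits, 13 cathepsins and ATP6V1FNB. ATP6V1FNB is named as a neighbour of ATP6V1F and is not a pump subunit.

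The 12 libraries form 4 groups of 3. Control cells were untreated. PNA-10b cells received sgPNA-10b at 150 nM, PNA-21 cells received sgPNA-21 at 150 nM, and PNA-10b+21 cells received both at 150 nM each. An sgPNA is a short peptide nucleic acid, a synthetic strand that pairs with a nucleic acid, and the study used these against the microRNAs miR-10b and miR-21. Each was given in nanoparticles labelled BNP, and the cells were incubated for 72 h. The labels give no culture time for the controls, so time in culture and treatment cannot be told apart. All groups are the same line, labelled WT. No labelled group received empty nanoparticles or an unrelated PNA, so effects of the carrier and of the sgPNA cannot be told apart. The labels do not say whether replicates were separate cultures, so the p-values measure the spread between these libraries, which may be technical. The 3 comparisons against control share the same 3 control libraries.

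The vacuolar-type proton pump (V-ATPase) acidifies lysosomes and endosomes. Its V1 sector hydrolyses ATP in the cytosol, and a rotating stalk drives protons through the V0 sector in the membrane. Cathepsins are proteases, most of them active at the acidic pH that this pump maintains. In glioma they are best known for breakdown of extracellular matrix and for tumour cell invasion. Many genes of both groups carry an E-box in the promoter, which the transcription factor TFEB and its relatives recognise.

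Promoter windows around E-boxes are shown first, because members that moved in opposite directions share this letter pattern. RefSeq promoters (GRCh38.p14, 250 bases before to 50 bases after the gene start) were matched for 24 members, of which 18 passed the filter on low counts. The letters CACGTG were searched on both strands, as was the longer core TCACGTGA, which contains them. CACGTG occurred in 7 of the 18 tested members (38.9%), against 1030 of 10406 promoters of tested genes (9.9%) and 2030 of all 27305 promoters (7.43%). Among these, TCACGTGA occurred in 3 members (16.7%) against 1.87% of promoters of tested genes. A match is a description of the letters and not a measured binding site. The windows below have the longest matching form in capitals. Distances are counted from the RefSeq start, while the gene spans given later are those of GENCODE 29, which reach further upstream for every gene shown. The windows therefore lie inside those spans, except that of ATP6V1G1, which lies upstream of its span.
ATP6V1G1, chr9:114587701-114587726, plus strand, 58 bases before the RefSeq start: gctgtgcggTCACGTGAcaacggggg
ATP6V0D1, chr16:67481201-67481226, minus strand, 59 bases before the RefSeq start: cccttatggTCACGTGAggcgcttgc
CTSA, chr20:45891300-45891325, plus strand, 25 bases before the RefSeq start: cgccggagtTCACGTGActcgtacac
ATP6V0B, chr1:43974893-43974918, plus strand, 57 bases before the RefSeq start: ggcgtggggtCACGTGgtaccggcgc
CTSD, chr11:1763959-1763984, minus strand, 47 bases before the RefSeq start: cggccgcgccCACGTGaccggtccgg
CTSF, chr11:66568642-66568667, minus strand, 51 bases before the RefSeq start: ctgcgcgcccCACGTGcctcctgtaa
ATP6V0E2 also held the letters, and CTSA, CTSF and ATP6V0B each held a second E-box. Of these 7 genes, 2 (ATP6V0B and ATP6V1G1) rose in PNA-21 cells, 2 (CTSA and CTSF) fell, and 3 (ATP6V0D1, ATP6V0E2 and CTSD) did not pass the test. Of all tested genes, 15.2% rose and 14.6% fell in that comparison.

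The microRNA targeted by sgPNA-21 is printed with its seed, bases 2 to 8, in capitals (RefSeq, GRCh38.p14, chr17:59841273-59841294, plus strand).
hsa-miR-21-5p: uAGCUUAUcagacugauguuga
The site complementary to this seed, ATAAGCT, was searched on the transcript strand of each gene's longest annotated 3′ UTR (GENCODE 29). It was present in 3 of the 29 tested members (10.3%) and in 1269 of 12234 tested genes with such a UTR (10.4%). The members were CTSC, CTSB and ATP6V0E1. The sites of CTSC and ATP6V0E1 are shown in capitals with 10 bases on each side, at the coordinates of the capitals.
CTSC, chr11:88325648-88325654, minus strand: ttgacatactATAAGCTacaaaagttc
CTSC, chr11:88323060-88323066, minus strand: actgtggtagATAAGCTtttggatgtg
ATP6V0E1, chr5:173034924-173034930, plus strand: gttcatttttATAAGCTtttctatcgc
Both CTSC sites lie in the 3′ UTR of 1 of the gene's 4 coding transcripts, which is not the transcript with the longest coding sequence. The CTSB site lies in 1 of 7 coding transcripts, likewise not the one with the longest coding sequence. The ATP6V0E1 site lies in the transcript with the longest coding sequence, 1 of 4. In PNA-21 cells CTSC rose, CTSB fell and ATP6V0E1 did not pass the test, with the values given below.

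Total counts per library ran from 12846676 to 18305820. Levels are given as CPM, counts divided by the library's TMM-scaled total and brought to a common total, and differences are log2 fold changes with standard errors (SE) from edgeR's quasi-likelihood fit over all 12 libraries. A gene was called where its Benjamini-Hochberg adjusted p over the 15715 tested genes was under 0.05. Of the 36 members, 29 passed the filter. The other 7 were near 0 counts in all groups: the highest count in any library was 14 for CTSW, 7 for CTSZ, 6 for ATP6V1B1, 4 for ATP6V0C, 2 each for ATP6V0A4 and CTSV, and 1 for CTSE. ATP6V0C encodes the main ring subunit, and 57.5% of its exon bases lie in a second gene annotated on the same strand. The part of that overlap in its low count was not tested.

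Between genes, levels can be compared only per kilobase of annotated exon, a length that differs from that of the transcripts present. On that scale CTSB was highest among the members in control cells, at 217 CPM per kilobase. CTSL followed at 188 and ATP6V1F at 123, and the lowest were ATP6V0D2 at 0.733, ATP6V1C2 at 0.316 and CTSH at 0.141. Of the 29 tested members, 23 were above the median tested gene in control cells and 12 were above the 90th percentile. Among paralogues, ATP6V1C1 stood at 17.05 against 0.316 for ATP6V1C2, and ATP6V1E1 at 39.8 against 0.969 for ATP6V1E2. PDIA6, on the opposite strand with 57556 counts over all libraries, covers 29.7% of the ATP6V1C2 exon bases. The part of this overlap in the ATP6V1C2 level was not tested. ATP6V0A1, at 5.87, was above ATP6V0A2, at 2.18. Neighbours in this order often overlapped, as CTSK at 107, CTSA at 105 and ATP6V0E1 at 102 did.

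**Figure D1:**
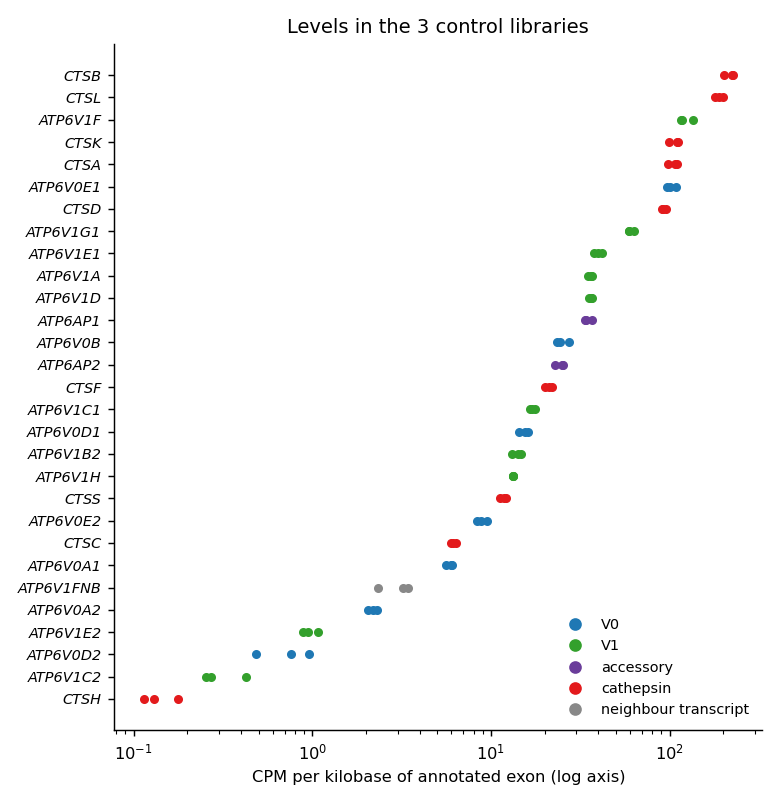
Level of the 29 tested members in the control libraries, in CPM per kilobase of annotated exon on a log axis, with 1 point per library coloured by role. CTSB and CTSL lie at the top, and ATP6V0D2, ATP6V1C2 and CTSH at the bottom.

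ATP6V0D2 showed the largest change of any member in all 3 comparisons against control. It encodes the d2 isoform of the subunit that couples the central stalk to the V0 ring, and is best known from osteoclasts, macrophages and kidney. The gene spans chr8:85987323-86154228 (hg38, plus strand). In control cells it stood at 2.28, 2.89 and 1.45 CPM, from raw counts of 34, 49 and 18. In PNA-10b cells the values were 4.49, 6.90 and 5.56 CPM, in PNA-21 cells 5.55, 8.60 and 6.87, and in PNA-10b+21 cells 7.39, 5.95 and 6.72. Every treated library lay above every control library, and the 3 treated groups overlapped one another. The level rose 2.51-fold in PNA-10b cells (log2 1.33, SE 0.22, edgeR adjusted p = 0.0009889). It rose 3.07-fold in PNA-21 cells (log2 1.62, SE 0.21, adjusted p = 1.143e-05) and 2.96-fold in PNA-10b+21 cells (log2 1.56, SE 0.22, adjusted p = 1.72e-05). An antisense gene on the opposite strand covers 16.7% of its exon bases, and the strand setting of the counting is not given in the sources used here.

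ATP6V0D1 encodes the ubiquitous d1 isoform (chr16:67438014-67481237, minus strand). Its values were 128, 118 and 132 CPM in control cells and 120, 115 and 118 in PNA-10b cells. PNA-21 cells had 142, 128 and 123 CPM, and PNA-10b+21 cells 142, 135 and 137. None of the 3 comparisons against control was called: the log2 differences were -0.10 (SE 0.06, adjusted p = 0.3593), 0.06 (SE 0.06, adjusted p = 0.4821) and 0.14 (SE 0.06, adjusted p = 0.07957). Only in PNA-10b+21 did all treated libraries lie above the control libraries. The d2 isoform therefore made up a larger share of the summed d isoforms, per kilobase, in treated cells: 4.61% ± 1.68 (SD, n = 3) in control, 11.6% ± 2.40 with PNA-10b, 12.8% ± 2.95 under PNA-21 and 11.7% ± 0.878 with PNA-10b+21. The d1 isoform remained the larger in every library.

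**Figure D2:**
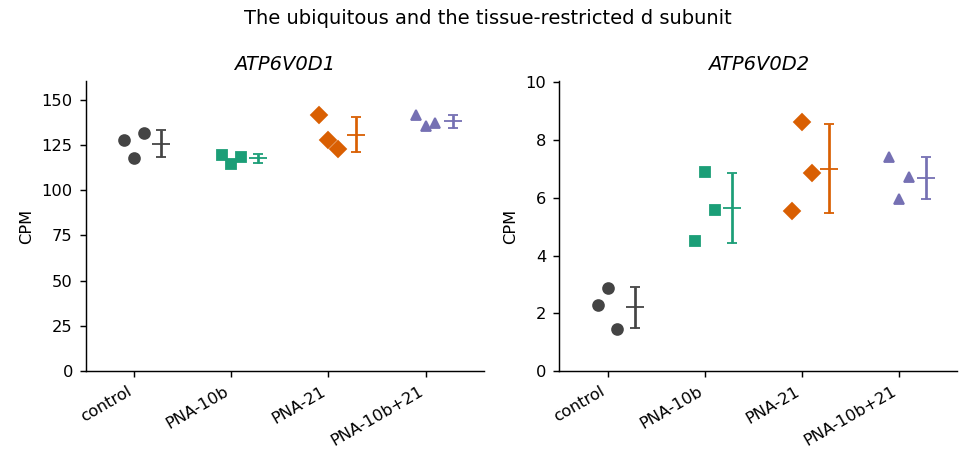
CPM of ATP6V0D1 (left) and ATP6V0D2 (right) by group, with 1 point per library and the mean ± SD beside them (n = 3), both axes from 0. ATP6V0D2 lies between 1.45 and 2.89 in control cells and between 4.49 and 8.60 in the treated groups, while ATP6V0D1 stays between 115 and 142 CPM throughout.

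Of the 7 tested V0 genes, 2 rose in PNA-10b cells and 4 rose in each of PNA-21 and PNA-10b+21 cells, and none was lower in any of these by edgeR, by DESeq2 or at an unadjusted p under 0.05. Of all tested genes 2.75%, 15.2% and 13.6% were called higher in these comparisons. ATP6V0A2, an a subunit of Golgi and endosomal pumps (chr12:123712318-123761755, plus strand), stood at 30.1, 31.7 and 28.2 CPM in control cells. It was at 37.7, 35.2 and 35.9 CPM in PNA-10b, at 37.0, 36.8 and 37.7 in PNA-21, and at 36.8, 36.7 and 33.2 in PNA-10b+21 cells. No treated library overlapped the controls, and the log2 changes were 0.27 (SE 0.07, adjusted p = 0.0159), 0.31 (SE 0.06, adjusted p = 0.001289) and 0.24 (SE 0.07, adjusted p = 0.008659). ATP6V0B, the c″ ring subunit (chr1:43974487-43978295, plus strand), had 96.7, 82.8 and 86.5 CPM in control and 91.1, 93.6 and 89.7 in PNA-10b cells, which overlapped. In PNA-21 cells it had 102, 103 and 99.9 CPM and in PNA-10b+21 cells 105, 106 and 102, all above the controls. It rose by log2 0.20 (SE 0.05, adjusted p = 0.008975) and 0.23 (SE 0.05, adjusted p = 0.002722). ATP6V0A1, another a subunit, rose by log2 0.16 in PNA-21 (SE 0.05, adjusted p = 0.0209) and 0.17 in PNA-10b+21 cells (SE 0.05, adjusted p = 0.02146).

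The e subunits, ATP6V0E1 and ATP6V0E2, were not called against control, with log2 differences from -0.06 to 0.04. Some V0 calls missed the threshold when 1 library was left out, with log2 differences of the same sign. The ATP6V0A2 call in PNA-10b was lost without control replicate 1 (log2 0.27, adjusted p = 0.05609) or 3 (0.23, 0.08623) or PNA-10b replicate 1 (0.24, 0.05611), and that in PNA-10b+21 without its replicate 1 (0.21, 0.05271). The ATP6V0A1 call in PNA-21 was lost without control replicate 2 or PNA-21 replicate 1 or 3 (log2 0.125 to 0.16, adjusted p 0.06323 to 0.1131), its call in PNA-10b+21 without control replicate 2 or PNA-10b+21 replicate 1 or 2 (log2 0.13 to 0.16, adjusted p 0.07259 to 0.1126), and the ATP6V0B call in PNA-21 without control replicate 2 (log2 0.14, adjusted p = 0.06822).

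In the V1 sector 5 of 10 tested genes rose in PNA-21 cells and 5 of 10 rose in PNA-10b+21 cells, where 15.2% and 13.6% of all tested genes were called higher. In PNA-10b cells edgeR and DESeq2 each called 0 of the 10, and 0 had an unadjusted p under 0.05. The catalytic head consists of A and B subunits. ATP6V1A, the A subunit that hydrolyses ATP (chr3:113747019-113812056, plus strand), had 187, 189 and 180 CPM in control and 180, 179 and 186 in PNA-10b cells. It had 219, 208 and 225 CPM in PNA-21 and 205, 220 and 213 in PNA-10b+21 cells. The libraries with sgPNA-21 all lay above those without it. The log2 changes against control were 0.23 in PNA-21 (SE 0.05, adjusted p = 0.001219) and 0.20 in PNA-10b+21 (SE 0.05, adjusted p = 0.004298). ATP6V1B2, the widely expressed B subunit (chr8:20197367-20226819, plus strand), had 111, 102 and 115 CPM in control and 116, 114 and 110 in PNA-10b cells. In PNA-21 it had 139, 128 and 137 CPM and in PNA-10b+21 cells 139, 142 and 129, again above every library without sgPNA-21. It rose by log2 0.30 (SE 0.06, adjusted p = 0.0003604) and 0.32 (SE 0.06, adjusted p = 0.0001777).

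ATP6V1F, a small subunit of the central stalk (chr7:128862826-128865844, plus strand), rose in both groups given sgPNA-21. It had 107, 93.0 and 91.7 CPM in control, 103, 106 and 107 with PNA-10b, 124, 117 and 118 under PNA-21 and 123, 126 and 117 with PNA-10b+21. Its PNA-10b libraries overlapped the controls, and the other treated libraries did not. The changes were log2 0.30 (SE 0.06, adjusted p = 0.0004791) and 0.33 (SE 0.06, adjusted p = 0.000207). The gene KCP, on the opposite strand, covers 23.7% of its exon bases. ATP6V1H, which regulates coupling of the sectors (chr8:53715557-53843558, minus strand), had 67.7, 67.6 and 67.7 CPM in control and 73.2, 71.7 and 68.8 in PNA-10b cells. It had 81.5, 77.3 and 76.9 CPM in PNA-21 and 80.5, 85.9 and 78.5 in PNA-10b+21 cells. It rose by log2 0.22 (SE 0.05, adjusted p = 0.003374) and 0.27 (SE 0.05, adjusted p = 0.0005426), while its PNA-10b difference of 0.07 was not called although all 3 libraries were above the controls.

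The peripheral stalks are built from E and G subunits. ATP6V1G1 (chr9:114587746-114598373, plus strand) had 82.5, 77.3 and 77.6 CPM in control and 81.5, 83.1 and 81.6 in PNA-10b cells. It had 88.1, 95.9 and 90.6 CPM in PNA-21 and 83.5, 84.1 and 79.2 in PNA-10b+21 cells, so PNA-21 stood above all other groups. It rose by log2 0.21 in PNA-21 (SE 0.05, adjusted p = 0.003854), whereas the difference of 0.06 in PNA-10b+21 was not called (adjusted p = 0.4618). The difference between PNA-10b+21 and PNA-21 was itself not called (log2 -0.15, SE 0.05, adjusted p = 0.3242). ATP6V1E1 (chr22:17592136-17628818, minus strand) had 128, 121 and 134 CPM in control, 134, 131 and 118 with PNA-10b, 145, 137 and 144 under PNA-21 and 144, 162 and 143 with PNA-10b+21. It rose by log2 0.23 in PNA-10b+21 (SE 0.06, adjusted p = 0.007208) and missed the threshold in PNA-21 (log2 0.15, SE 0.06, adjusted p = 0.06026). The PNA-21 difference passed without the filter (adjusted p = 0.02771) and in fits of only the groups compared (0.04255). It also passed without PNA-10b replicate 3 (0.0481) or PNA-10b+21 replicate 2 (0.04624). The PNA-10b+21 call was lost without that group's replicate 2, the highest library (log2 0.17, adjusted p = 0.06078). ATP6V1C1, ATP6V1D, ATP6V1E2 and ATP6V1C2 were not called against control, with log2 differences from -0.19 to 0.31.

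**Figure D3:**
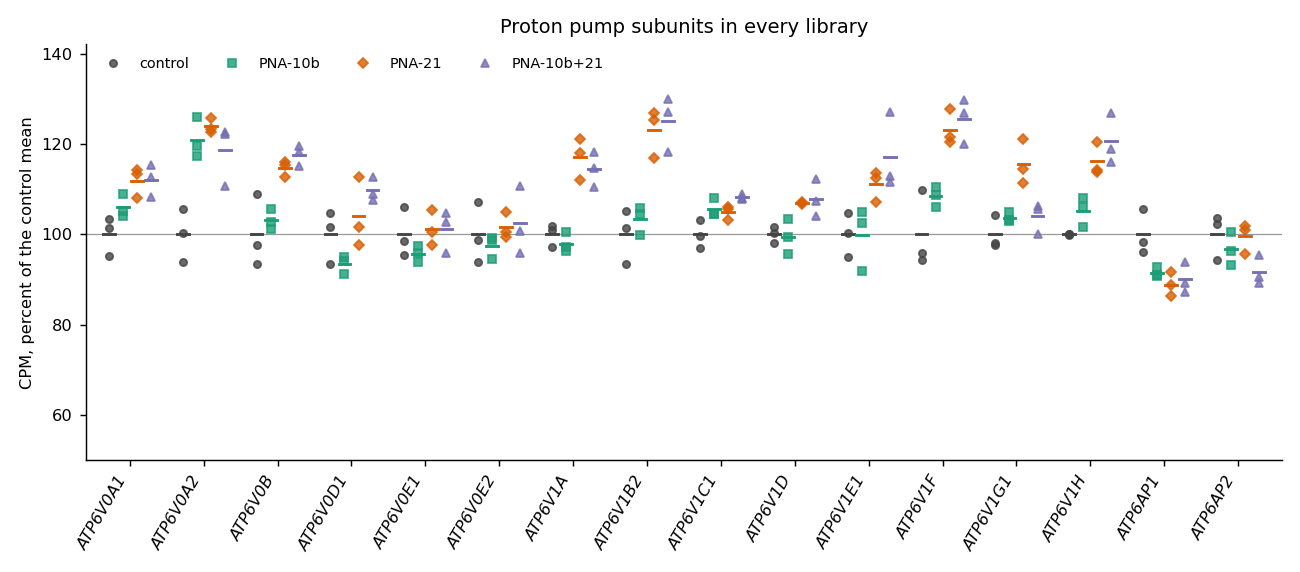
CPM of 16 pump genes in each library, as a percentage of the gene's control mean, with the group mean as a bar and the axis starting at 50%. The PNA-21 and PNA-10b+21 libraries of ATP6V1A, ATP6V1B2, ATP6V1F and ATP6V1H lie above the controls, and those of ATP6AP1 lie below.

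The accessory subunits, which take part in pump assembly, did not rise. ATP6AP1 (Ac45) fell by 0.17 on the log2 scale in PNA-21 (SE 0.05, adjusted p = 0.01268) and by 0.15 in PNA-10b+21 cells (SE 0.05, adjusted p = 0.02835). Its mean was 170 ± 8.38 CPM in control, 156 ± 1.98 with PNA-10b, 151 ± 4.45 under PNA-21 and 153 ± 5.86 with PNA-10b+21 (SD, n = 3 each), and all treated libraries were below the controls. The PNA-21 call was lost without control replicate 1 (log2 -0.13, adjusted p = 0.07405), and the PNA-10b+21 call without control replicate 1 or PNA-10b+21 replicate 1 or 2 (log2 -0.14 to -0.11, adjusted p 0.09218 to 0.147) and in 2 other settings given in the closing section. ATP6AP2, the prorenin receptor, was not called, with log2 differences of -0.05, -0.01 and -0.12. Without control replicate 3 or PNA-10b+21 replicate 3 it was called lower in PNA-10b+21 (log2 -0.17 and -0.16, adjusted p = 0.03227 and 0.0472). TCIRG1, the a3 subunit whose name lies outside the rule, was at 298 CPM in control cells and not called, with log2 differences of -0.16, -0.04 and 0.02. Nor were the partners RNASEK and ATP6AP1L. ATP6V1FNB had log2 differences of 0.45, 0.37 and 0.32, none called, with SEs of 0.15 each.

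Summed over V0, V1 and accessory genes, pump transcripts were 1866 ± 55.7 CPM in control, 1863 ± 7.74 with PNA-10b, 2019 ± 28.5 under PNA-21 and 2018 ± 33.6 with PNA-10b+21 (SD, n = 3 each). All libraries with sgPNA-21, which ran from 1984 to 2051 CPM, lay above all libraries without it, which reached 1929 CPM.

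The cathepsins moved in both directions. Of 9 tested, 3 fell in PNA-10b cells, 2 rose and 3 fell in PNA-21 cells, and 3 rose and 3 fell in PNA-10b+21 cells. Of all tested genes 3.74% were called lower in the first of these comparisons, 15.2% higher and 14.6% lower in the second, and 13.6% higher and 13.4% lower in the last. CTSC, CTSL and CTSK rose in at least 1 group, and CTSA, CTSB, CTSF and CTSD fell in at least 1 group. Summed cathepsin transcripts were 3346 ± 176 CPM in control, 3127 ± 66.1 with PNA-10b, 2972 ± 36.1 under PNA-21 and 3115 ± 65.9 with PNA-10b+21 (SD, n = 3 each). The PNA-21 libraries, from 2938 to 3010 CPM, all lay below the lowest control library at 3148 CPM.

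CTSC, a dipeptidyl peptidase known for activating serine proteases of immune granules (chr11:88293592-88337787, minus strand), rose. It had 70.1, 73.1 and 68.0 CPM in control and 74.2, 75.8 and 73.2 in PNA-10b cells. It had 95.2, 92.6 and 89.8 CPM in PNA-21 and 88.6, 89.1 and 89.4 in PNA-10b+21 cells. The libraries with sgPNA-21 lay above all others, and the rise was log2 0.39 in PNA-21 (SE 0.05, adjusted p = 5.625e-06) and 0.34 in PNA-10b+21 (SE 0.05, adjusted p = 2.999e-05). CTSL, a broad lysosomal endopeptidase (chr9:87725519-87731393, plus strand), had 469, 423 and 445 CPM in control and 456, 444 and 415 in PNA-10b cells. It had 491, 505 and 540 CPM in PNA-21 and 582, 587 and 508 in PNA-10b+21 cells. All libraries with sgPNA-21 were again above all others, and it rose by log2 0.20 (SE 0.06, adjusted p = 0.01619) and 0.33 (SE 0.06, adjusted p = 0.0003686). The PNA-21 call of CTSL was lost without control replicate 2 (log2 0.16, adjusted p = 0.07854) or PNA-21 replicate 3 (log2 0.16, adjusted p = 0.08315).

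CTSA, a serine carboxypeptidase that also protects lysosomal sialidase and galactosidase (chr20:45890144-45898820, plus strand), was lower in all 3 treated groups. It had 645, 576 and 624 CPM in control, 554, 519 and 558 with PNA-10b, 471, 472 and 481 under PNA-21 and 485, 488 and 500 with PNA-10b+21. No treated library reached the control range. It fell by 0.18 in PNA-10b (SE 0.05, adjusted p = 0.03683), by 0.37 in PNA-21 (SE 0.05, adjusted p = 1.402e-05) and by 0.32 in PNA-10b+21 cells (SE 0.05, adjusted p = 6.005e-05) on the log2 scale. On the opposite strand NEURL2, with 169 counts over all libraries, covers 17.7% of its exon bases, and PLTP, with 84216 counts, covers 3.4%. CTSB, the most abundant cathepsin and one long studied in glioma invasion (chr8:11842524-11869448, minus strand), had 1682, 1498 and 1659 CPM in control and 1575, 1510 and 1488 in PNA-10b cells, which overlapped. In PNA-21 it had 1311, 1339 and 1306 CPM and in PNA-10b+21 cells 1356, 1411 and 1377, all below the controls. It fell by 0.29 (SE 0.05, adjusted p = 0.0002571) and by 0.22 (SE 0.05, adjusted p = 0.002588) on the log2 scale.

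CTSF, a cysteine cathepsin of the papain family (chr11:66563463-66568841, minus strand), had 63.3, 58.0 and 61.6 CPM in control and 50.7, 50.3 and 50.8 in PNA-10b cells. It had 46.4, 42.1 and 51.6 CPM in PNA-21 and 47.9, 51.1 and 49.3 in PNA-10b+21 cells. The treated groups overlapped one another and all lay below the controls. The fall was 0.27 in PNA-10b (SE 0.06, adjusted p = 0.01434), and log2 values were -0.38 in PNA-21 (SE 0.06, adjusted p = 0.0001653) and -0.30 in PNA-10b+21 (SE 0.06, adjusted p = 0.001319). CTSD, the main aspartic protease of lysosomes (chr11:1752752-1764573, minus strand), had 300.1, 282 and 286 CPM in control and 237, 246 and 270 in PNA-10b cells. It had 268, 271 and 261 CPM in PNA-21 and 261, 269 and 268 in PNA-10b+21 cells. Although every treated library was below the controls, only the PNA-10b difference was called: log2 -0.21 (SE 0.05, adjusted p = 0.01708), against -0.12 (SE 0.05, adjusted p = 0.07976) and -0.12 (SE 0.05, adjusted p = 0.07701). Without PNA-10b replicate 3 the PNA-21 difference from control was called (log2 -0.12, adjusted p = 0.04939). The difference between PNA-21 and PNA-10b was not called (log2 0.09, SE 0.05, adjusted p = 0.3372). Another gene on the same strand covers 41.7% of the CTSD exon bases.

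CTSK, known as the collagenase of osteoclasts, rose in PNA-10b+21 cells (log2 0.18, SE 0.06, adjusted p = 0.03947), a call lost on leaving out control replicate 2 or the first or second PNA-10b+21 replicate (log2 0.12 to 0.19, adjusted p 0.07681 to 0.1945). CTSS had log2 differences of 0.01, 0.01 and 0.05, and CTSH had at most 16 counts in a library. The falls in PNA-10b cells kept their sign but missed the threshold in several settings that left out a library. All 3 calls were lost without control replicate 1 (adjusted p 0.08608 to 0.1808) and without PNA-10b replicate 2 (0.0789 to 0.2345). For CTSA the call also ended in 4 further settings, which left out PNA-10b replicate 1, control replicate 3, or either of replicates 1 and 2 of the PNA-10b+21 cells (0.05051 to 0.1344), for CTSD without PNA-10b replicate 1 (0.07563) and for CTSF without control replicate 3 (0.05883). In the settings where the call was lost the log2 difference was -0.19 to -0.14 for CTSA, -0.19 to -0.17 for CTSD and -0.26 to -0.24 for CTSF, against -0.18, -0.21 and -0.27 with all libraries. Within the summed cathepsin counts CTSL took 13.3% ± 0.213 in control, 14.02% ± 0.520 with PNA-10b, 17.2% ± 0.645 under PNA-21 and 17.9% ± 1.19 with PNA-10b+21. CTSB took 48.2% ± 0.591, 48.7% ± 0.542, 44.4% ± 0.873 and 44.3% ± 0.568 in the same order (SD, n = 3 each).

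**Figure D4:**
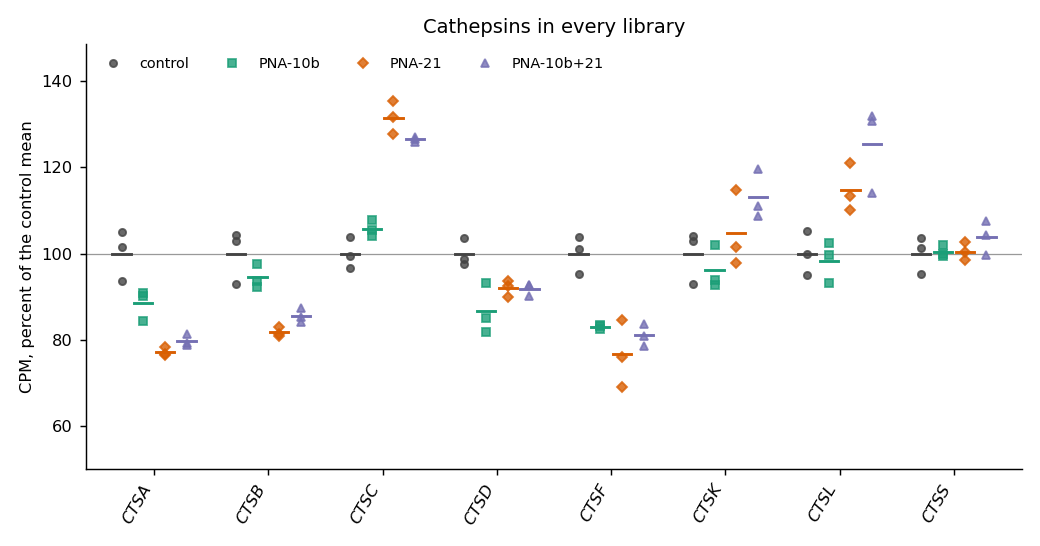
CPM of 8 cathepsins in each library, as a percentage of the gene's control mean, with the group mean as a bar and the axis starting at 50%. CTSC and CTSL lie above the controls in PNA-21 and PNA-10b+21 cells, and CTSA, CTSB and CTSF lie below.

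Counted over all tested members, 2 rose and 3 fell in PNA-10b cells, where 6.48% of all tested genes were called (2.75% higher and 3.74% lower), so 17.2% of members were called. In PNA-21 cells 11 rose and 4 fell, or 51.7% of members against 29.8% of all tested genes (15.2% higher and 14.6% lower). In PNA-10b+21 cells 12 rose and 4 fell, or 55.2% against 27% (13.6% higher and 13.4% lower). The median log2 difference of the members was -0.01, 0.07 and 0.11 in these comparisons, and that of all tested genes was 0.00, -0.01 and 0.00. For the 17 subunits of V0 and V1 the medians were 0.05, 0.16 and 0.17. All 3 libraries lay above all controls for 7, 13 and 15 members, against 11%, 21.5% and 20.3% of all tested genes, and below them for 4, 5 and 5 members, against 12.8%, 20.9% and 19.9%. Members are mostly abundant, as given above, and the part of abundance in these shares was not tested. The PNA-10b counts varied with the libraries included: without PNA-10b replicate 2 or control replicate 1 no fall was called, and without control replicate 3 or PNA-10b replicate 1 there was 1 rise and 1 fall.

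The treated groups were then compared with each other, all at 72 h. The single treatments were at the same dose, whereas the combination held 150 nM of each sgPNA, so its total dose was higher than that of either single treatment. PNA-21 cells differed from PNA-10b cells in 6 members, 4 higher and 2 lower, where 6.79% of all tested genes were called (2.91% higher and 3.88% lower). All PNA-21 libraries lay above all PNA-10b libraries for 13 members (13.3% of all tested genes) and below them for 3 (12.9%). The pump genes were ATP6V1A (log2 0.26, SE 0.05, adjusted p = 0.00194) and ATP6V1B2 (0.25, SE 0.05, adjusted p = 0.0073), the subunits of the catalytic head. CTSC (0.31, SE 0.05, adjusted p = 0.0003553) and CTSL (0.22, SE 0.06, adjusted p = 0.02901) were also higher, and CTSA (-0.20, SE 0.05, adjusted p = 0.02066) and CTSB (-0.21, SE 0.05, adjusted p = 0.01643) were lower. Both lower calls were lost without PNA-10b replicate 1 or PNA-21 replicate 1 (adjusted p 0.06276 to 0.08661), and the CTSA call also without PNA-10b replicate 3 (0.06969) or PNA-21 replicate 2 (0.06338), with log2 differences of -0.19 to -0.18 for CTSA and -0.20 to -0.18 for CTSB. The CTSL call was lost without PNA-10b replicate 2 or 3 or PNA-21 replicate 2 or 3 (log2 0.18 to 0.23, adjusted p 0.05401 to 0.1287).

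Adding sgPNA-21 to sgPNA-10b raised 10 members, where 9.7% of all tested genes were called (4.61% higher and 5.1% lower). All libraries of the combination lay above for 11 members (14.9% of all tested genes) and below for 3 (13.4%). These were ATP6V0B, ATP6V0D1, ATP6V1A, ATP6V1B2, ATP6V1E1, ATP6V1F, ATP6V1H, CTSC, CTSK and CTSL, with log2 differences from 0.19 to 0.35. ATP6V0D1, not called against control, was here higher by log2 0.23 (SE 0.06, adjusted p = 0.01133), a call lost without PNA-10b replicate 2 (log2 0.22, adjusted p = 0.05444) or PNA-10b+21 replicate 1 (log2 0.21, adjusted p = 0.08112). edgeR called 0 members lower, DESeq2 called 2, CTSA and CTSB, and so did edgeR without control replicate 2. The count of 10 dropped to 5 without PNA-10b+21 replicate 1 or 2 and to 6 without PNA-10b replicate 2 or 3. ATP6V1A, ATP6V1B2, CTSC and CTSL were called in each setting tried.

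For PNA-10b+21 against PNA-21 cells, edgeR and DESeq2 each called 0 of 29 members, and 3 had an unadjusted p under 0.05. Over all tested genes edgeR called 0%, and 1354 genes had an unadjusted p under 0.05. DESeq2, which was run on every gene with any count, called 27 genes lower and 0 higher. Libraries of both groups did not overlap for 7 members: 3 were above (6.19% of all tested genes) and 4 below (8.16%).

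The effect of sgPNA-21 with sgPNA-10b present was compared with its effect alone (the interaction), where 3.12% of all tested genes were called (1.48% higher and 1.64% lower). It was called for 3 members. For ATP6V0D2 the log2 effect of sgPNA-21 was 1.62 alone and 0.24 on top of sgPNA-10b, a difference of -1.38 (SE 0.28, adjusted p = 0.01348). For ATP6V0A2 the effects were 0.31 and -0.03, a difference of -0.33 (SE 0.09, adjusted p = 0.04822), and for CTSF they were -0.38 and -0.04, a difference of 0.34 (SE 0.09, adjusted p = 0.04435). With sgPNA-10b alone the differences from control were log2 1.33 for ATP6V0D2, 0.27 for ATP6V0A2 and -0.27 for CTSF. The effect alone was measured against untreated cells, and the effect on top between groups that both received nanoparticles. A carrier response shared by all treated groups and an interaction of the sgPNAs therefore cannot be told apart. The libraries of the 3 treated groups overlapped one another for ATP6V0D2 and CTSF. For ATP6V1A the effects were 0.23 and 0.23 (interaction 0.00, SE 0.07, adjusted p = 0.9951), and for ATP6V1B2 0.30 and 0.27 (-0.03, SE 0.08, adjusted p = 0.9033). The ATP6V0D2 interaction was lost without control replicate 1 (log2 -1.38, adjusted p = 0.05387) or PNA-10b replicate 2 (log2 -1.21, adjusted p = 0.06263). Those of ATP6V0A2 and CTSF passed the threshold narrowly and were lost in 11 and 9 of the 12 settings that leave out a library, with differences there of -0.36 to -0.29 for ATP6V0A2 and 0.28 to 0.36 for CTSF.

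**Figure D5:**
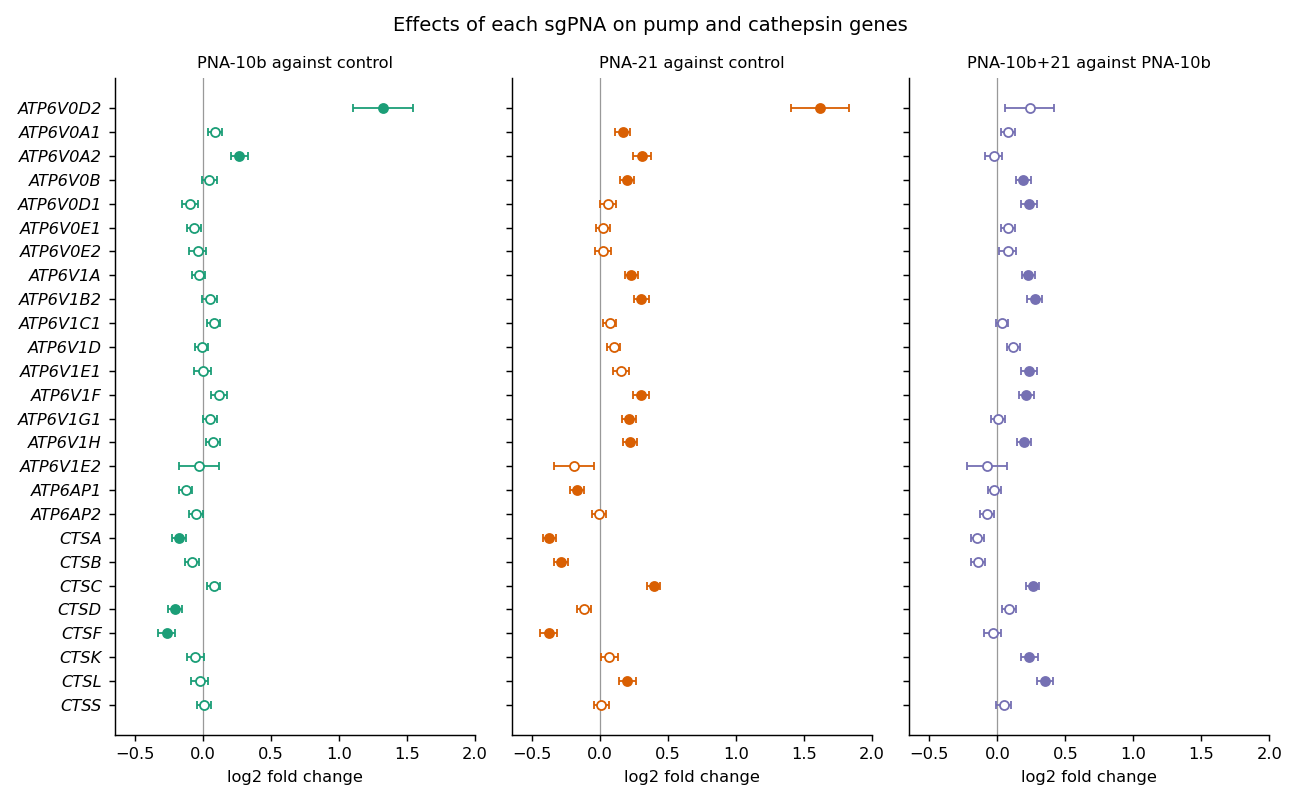
Log2 fold changes ± SE of 26 members for sgPNA-10b alone, sgPNA-21 alone and sgPNA-21 on top of sgPNA-10b, with filled points for an adjusted p under 0.05. ATP6V0D2 is high for each sgPNA alone and not called for sgPNA-21 on top of sgPNA-10b, while ATP6V1A, ATP6V1B2, CTSC and CTSL are called wherever sgPNA-21 was added and not for sgPNA-10b alone.

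Other lysosomal genes, from lists made up for this description, did not all move like the pump. Among 39 tested lysosomal hydrolases outside the cathepsins, 8 fell in PNA-10b, 2 rose and 15 fell in PNA-21, and 2 rose and 9 fell in PNA-10b+21 cells, with median log2 differences of -0.11, -0.11 and -0.10 (all tested genes 0.00, -0.01 and 0.00). The shares called in either direction were 20.5%, 43.6% and 28.2%, against 6.48%, 29.8% and 27% of all tested genes. The last was near the background only with the directions pooled. In PNA-10b+21 cells 2 of the 39 rose and 9 fell, whereas 13.6% of all tested genes were called higher and 13.4% lower. All libraries of that group lay below all controls for 17 of the 39 (19.9% of all tested genes) and above for 6 (20.3%). In PNA-10b cells 0 hydrolases rose by edgeR, by DESeq2 or at an unadjusted p under 0.05. MANBA, the lysosomal beta-mannosidase, fell by 0.20, 0.39 and 0.36 on the log2 scale (adjusted p = 0.04075, 4.678e-05 and 0.000115). SGSH, a heparan sulfatase, rose by 0.24 in PNA-21 and 0.36 in PNA-10b+21 cells (adjusted p = 0.009276 and 0.0003861). ACP5, the tartrate-resistant acid phosphatase, fell by 0.51 in PNA-10b and by 0.30 in PNA-21 cells (adjusted p = 0.002748 and 0.01895).

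Of 29 tested lysosomal membrane proteins and transporters, 1 rose and 3 fell in PNA-10b, 7 rose and 5 fell in PNA-21, and 5 rose and 7 fell in PNA-10b+21 cells. This was 13.8%, 41.4% and 41.4% of the list, against 6.48%, 29.8% and 27% of all tested genes. NPC1, which exports cholesterol from lysosomes, rose by log2 0.24, 0.37 and 0.46 (adjusted p = 0.007836, 1.877e-05 and 1.446e-06). SCARB2, the receptor that carries glucocerebrosidase, fell by 0.22 in PNA-21 and by 0.30 in PNA-10b+21 cells (adjusted p = 0.001713 and 0.0001179). In the mannose 6-phosphate sorting list, which holds the receptors and adaptors that deliver cathepsins, 3 of 14 rose and 1 fell in PNA-21, and 5 rose and 1 fell in PNA-10b+21 cells. These are 28.6% and 42.9% of the list, against 29.8% and 27% of all tested genes, and the PNA-21 share is thus near the background. AP1M1, an adaptor subunit, rose by log2 0.29 in both (adjusted p = 0.001431 and 0.001574). DESeq2 called 0 of the 14 lower in either comparison. In PNA-10b cells edgeR and DESeq2 each called 0 of these 14, and 3 had an unadjusted p under 0.05 (2 higher, 1 lower).

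Pump assembly and regulation factors were called in both directions, 2 of 11 higher and 2 lower in PNA-21, and 2 higher and 3 lower in PNA-10b+21 cells, or 36.4% and 45.5% against 29.8% and 27% of all tested genes. In PNA-10b cells edgeR and DESeq2 called 0 of the 11, with 1 higher and 3 lower at an unadjusted p under 0.05. RAB7A, the late endosomal GTPase, rose by log2 0.18 and 0.22 (adjusted p = 0.00684 and 0.001822). CCDC115, a V0 assembly factor, fell by 0.23 and by 0.29 (adjusted p = 0.007715 and 0.00175), and VMA21, another, rose by 0.39 in PNA-21 cells (adjusted p = 0.00192). Among 7 tested cathepsin inhibitors, 1 rose in every treated group. It was CSTB, cystatin B, at log2 0.25, 0.19 and 0.24 (adjusted p = 0.005699, 0.008829 and 0.002126). CD74 and SPOCK1 fell in all 3 groups, SPOCK1 by 0.32, 0.65 and 0.75 (adjusted p = 0.001273, 5.632e-08 and 7.292e-09), and CST3, cystatin C, fell in PNA-21 and PNA-10b+21 cells (adjusted p = 0.03279 and 0.04655). Called inhibitors made up 42.9%, 57.1% and 57.1% of the 7, against 6.48%, 29.8% and 27% of all tested genes.

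TFEB, a transcription factor of the E-box, was at 5.09 CPM in control cells and not called, with log2 differences of -0.40, -0.10 and -0.18. TFE3, at 236 CPM, was not called (-0.08, -0.06 and -0.04). MITF, at 18.0 CPM, fell by 0.34 in PNA-10b+21 cells (adjusted p = 0.01016). In the list of this family and of mTORC1 control at the lysosome, 1 of 24 rose in PNA-10b, 6 rose and 2 fell in PNA-21, and 5 rose and 2 fell in PNA-10b+21 cells. The shares of 4.17%, 33.3% and 29.2% were near the 6.48%, 29.8% and 27% of all tested genes. RRAGD, a Rag GTPase, rose by log2 0.37, 0.68 and 0.59 (adjusted p = 0.01351, 5.944e-06 and 3.143e-05), and RRAGA fell by 0.33 and by 0.43 in PNA-21 and PNA-10b+21 cells (adjusted p = 0.0002773 and 1.636e-05). Of 26 tested autophagy genes, 4 rose and 4 fell in PNA-21 and 3 rose and 3 fell in PNA-10b+21 cells, shares of 30.8% and 23.1% that were near the 29.8% and 27% of all tested genes. In PNA-10b cells edgeR and DESeq2 called 0 of the 26, with 2 higher and 5 lower at an unadjusted p under 0.05. SQSTM1, an autophagy receptor, rose by log2 0.17 and 0.28 (adjusted p = 0.01302 and 0.0002388).

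Markers of the cells in which ATP6V0D2 is best known were mostly near 0. Of 16 osteoclast and macrophage markers 14 were in the table and 3 passed the filter, namely ACP5, CSF1R and TNFRSF11A. The highest count in any library was 3 for SPI1, 3 for DCSTAMP, 3 for MMP9, 2 for CALCR, 1 for OCSTAMP, 1 for NFATC1 and 29 for PTPRC. The list's summed level was 51.3 to 56.8 CPM in control, 38.1 to 43.2 with sgPNA-10b, 40.3 to 45.6 with sgPNA-21 and 44.3 to 46.9 with both, and each treated range lay below the control range. Most of this sum is ACP5, at 32.2 CPM on average in control and 25.9 in the treated libraries, and CSF1R, at 17.4 and 11.9. Other markers went the other way at low counts: PTPRC averaged 0.179 CPM in control and 0.480 in the treated libraries, ITGAM 0.0616 and 0.143, LAPTM5 0.0958 and 0.140, MMP9 0.0223 and 0.0774, and DCSTAMP had no counts in control and averaged 0.0956 CPM in the treated libraries. In all, 8 of the 14 had a higher mean in treated libraries and 6 a lower one. The part of such cells in the ATP6V0D2 result was not tested. Of the 3 tested, 2, 2 and 1 fell in the 3 comparisons against control, where 3.74%, 14.6% and 13.4% of all tested genes were called lower. None of the 3 was higher by edgeR, by DESeq2 or at an unadjusted p under 0.05. For kidney cells 6 of 7 listed markers were in the table and 2 passed, and FOXI1 had at most 1 count. The summed levels of the 6 were 3.12 to 5.08 CPM in control and 2.12 to 3.43 in the treated libraries. Most of this sum is SLC26A4, at 3.16 CPM on average in control and 1.53 in the treated libraries. Of the 6 markers, 4 had a higher mean in treated libraries and 2 a lower one. Within that list CA2, carbonic anhydrase 2, rose from a control level of 0.278 CPM by log2 1.71 in PNA-21 and 1.36 in PNA-10b+21 cells (adjusted p = 0.003082 and 0.02116), calls that DESeq2 did not make. SLC26A4 fell by 1.04 and by 1.42 in the same groups (adjusted p = 0.002216 and 0.000224). Of the 12 glioma markers, VIM at 1842 and CD44 at 1454 CPM were abundant in control cells, GFAP stood at 4.09 CPM, and SOX2 and S100B had at most 2 and 4 counts. Of the 9 tested, 4 fell with sgPNA-10b, 5 fell and 1 rose with sgPNA-21, and 5 fell with both, where 3.74%, 14.6% and 13.4% of all tested genes were called lower. DESeq2 called 2, 5 and 5 of the 9 lower in these comparisons and 0 higher in each. In bulk RNA, a change in the number of cells of a type and a change in RNA per cell cannot be told apart.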

How the data were processed

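U87 cells in 4 groups of 3 libraries were profiled with the Illumina TruSeq Stranded mRNA kit, per the labels. The values are raw, unnormalized counts for 35741 genes, as the authors deposited them. The submitters' processing notes name HISAT2 2.1.0, SAMtools 1.7, HTSeq 0.11.0 and hg38. How strand was counted, and which annotation was used, is not given in the sources used here. Coordinates and exon lengths came from GENCODE 29 (34564 genes matched), which is also on hg38.

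Genes were filtered with filterByExpr (minimum count 10) in edgeR 4.0.16 (R 4.3.3). The 15715 genes kept hold 99.84% of counts. Counts were scaled with TMM factors (0.966 to 1.036) and fitted in 1 quasi-likelihood model with a mean per group. The common biological coefficient of variation was 0.052. P-values were adjusted by Benjamini-Hochberg over all tested genes, in 7 comparisons. The fit was tested on simulated data. CPM values use the same factors. Depth limits low genes most, above all ATP6V0D2, CTSH and ATP6V1C2.

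Alternatives were RLE factors, no filter, DESeq2 1.42.0, the replicate number as a block, only the groups compared, leaving out each library, and leaving out ATP6AP1 and ATP6AP2, which a literal reading of the pseudogene rule would remove. Values in every library are given for the 14 members with the smallest p against control and for ATP6V0D1 and ATP6V0D2. Up to 4 genes were named from each other list by smallest p, with TCIRG1, TFEB, TFE3 and MITF, and the remaining members by level and difference. Members and lists were chosen with earlier results of these data known. CTSO, CTSG, ATP6V1G2 and ATP6V1G3 were not analysed here, nor was the seed of miR-10b. Sequences of members on chromosome 8 are not printed.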

Additional observations from a re-analysis of the deposited data

Results flagged for a closer look

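The effect of sgPNA-21 differed between cells with and without sgPNA-10b for 3 members, by the interaction term of the edgeR fit. Only the effect without sgPNA-10b was measured against untreated cells. A carrier response shared by the treated groups and an interaction of the sgPNAs therefore cannot be told apart. For ATP6V0D2 the difference was -1.38 on the log2 scale (SE 0.28, adjusted p = 0.01348), from an effect of 1.62 alone to 0.24 in the presence of sgPNA-10b. For ATP6V0A2 it was -0.33 (SE 0.09, adjusted p = 0.04822), from 0.31 to -0.03. For CTSF it was 0.34 (SE 0.09, adjusted p = 0.04435), from -0.38 to -0.04. In the libraries, ATP6V0D2 was at 4.49 to 6.90 CPM with sgPNA-10b alone and at 5.95 to 7.39 CPM with both, against 1.45 to 2.89 CPM in control. All tested members entered this test, and it was called for 3.12% of all tested genes. Each group holds 3 libraries, so single libraries were not flagged for standing apart. Fits that left out each library in turn are given in the next section.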

How the results depend on the processing

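The 55 member calls were recomputed under 17 settings and none reversed. With RLE factors 55 of 55 were kept. Without the filter 53 of 55 were kept, and in fits of only the groups compared 50 of 52. In both the losses were CTSA in PNA-10b (adjusted p 0.05331 and 0.09108) and ATP6AP1 in PNA-10b+21 (0.09361 and 0.05229); the cause was not tested. DESeq2 kept 53 of 54, losing the ATP6V0A2 interaction (adjusted p = 0.05368). It gave no adjusted p for the ATP6V0D2 interaction, which is therefore not counted. Under DESeq2 the members lower in PNA-10b+21 than in PNA-10b were 2 rather than 0, and those with a higher interaction 2 rather than 1. Those with a lower interaction were 0 rather than 2. Of these, ATP6V0A2 missed the threshold, while ATP6V0D2 had no adjusted p and so was not evaluated. Leaving out ATP6AP1 and ATP6AP2 moved no count by over 1.5 times. The largest absolute median of all genes was 0.01 under either scaling.

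Replicate numbers showed at most weak pairing of the libraries. Deviations of the 18 same-numbered pairs correlated at -0.058 to 0.109, and 6 of 12 libraries correlated best with their own number. With the replicate number as a block all 55 calls were kept, and 5 rather than 4 members were higher in PNA-21 than in PNA-10b, the added gene being ATP6V1F (adjusted p = 0.04337). Over all tested genes the block added calls in every comparison that had any. In PNA-10b against control, 432 higher and 587 lower became 562 and 709.

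Leaving out each library gave 1 to 3 members higher and 0 to 3 lower in PNA-10b, 9 to 12 and 3 to 5 in PNA-21, and 9 to 12 and 3 to 5 in PNA-10b+21. Between treatments it gave 3 to 5 higher and 0 to 2 lower in PNA-21 against PNA-10b, 5 to 10 and 0 to 2 in PNA-10b+21 against PNA-10b, and 0 in PNA-10b+21 against PNA-21. The interaction gave 0 to 2 in each direction. The ATP6V0D2 rises held in all 17 settings, as did the PNA-21 and PNA-10b+21 calls of ATP6V1A, ATP6V1B2, ATP6V1F, ATP6V1H, CTSA, CTSB, CTSC and CTSF. Without the filter ATP6V1FNB was called in all 3 comparisons against control (adjusted p = 0.0006319, 0.002842 and 0.01946).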
